A study of Mus musculus with 17 samples.

Results

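The genes described here are 31 that encode the proteins of synaptic vesicles and of the machinery that releases them, taken by gene symbol from the 35285 genes of an expression table of the mouse cochlea. The table covers 17 libraries from male C57BL/6J mice, 8 weeks old and all wild type. The 3 control mice received saline and no noise. The 7 NE (noise exposure) mice spent 2 h in noise at 100 dB SPL that spanned 8 to 16 kHz, which the methods call octave-band and the sample labels broadband. The 7 brimonidine mice were exposed likewise and were also given brimonidine, which activates α2-adrenergic receptors, at 1 mg/kg intraperitoneally in 3 injections, on the day before, the day of and the day after the noise. The methods state no injection for the NE mice, so the NE group may also differ from the others in injection. Cochleae were taken 2 days after exposure. None of the 17 sequenced libraries came from a mouse given brimonidine without noise, so in these values an effect of the drug apart from noise cannot be told apart from one that needs the noise.

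At a chemical synapse, synapsins hold vesicles in a reserve near the release site, SV2 proteins and synaptophysin span the vesicle membrane, and synaptotagmins sense the calcium that triggers release. Fusion is driven by SNARE proteins of the vesicle (Vamp) and the plasma membrane (syntaxin, Snap25), held ready by complexins, at an active zone built from RIM, Munc13, bassoon and piccolo, and the SNAREs are afterwards taken apart by Nsf and its adaptors. In the cochlea, inner hair cells release glutamate at ribbon synapses whose calcium sensor is otoferlin rather than the neuronal synaptotagmins. The messages of neuronal release genes are made in neuron cell bodies, which in the cochlea lie in the spiral ganglion.

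The libraries differed from each other in ways that bear on every value below. Between 14457733 and 18288854 fragments were counted on genes in each. Across genes, control 2 had a median correlation of 0.831 with the other libraries, controls 1 and 3 had 0.955 and 0.947, and the 14 exposed libraries lay between 0.971 and 0.981. Control 2 was the highest control for 30 of the 31 genes, with Stx1a as the exception, at 1.14 to 4.18 times the mean of the other controls (median 2.66). NE 3 was the highest NE library for 27 genes, and brimonidine 5 the highest brimonidine library for 29. Control 2, NE 3 and brimonidine 5 were kept, and results that turn on them are given without them. The labels name the cell type as interstitial cells, the methods name the cochlea, and neuronal, hair cell, Schwann cell and central nervous system markers were all detected. Since the libraries are bulk tissue, fewer cells of a type and less RNA per cell cannot be told apart in any of these comparisons.

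**Figure D1:**
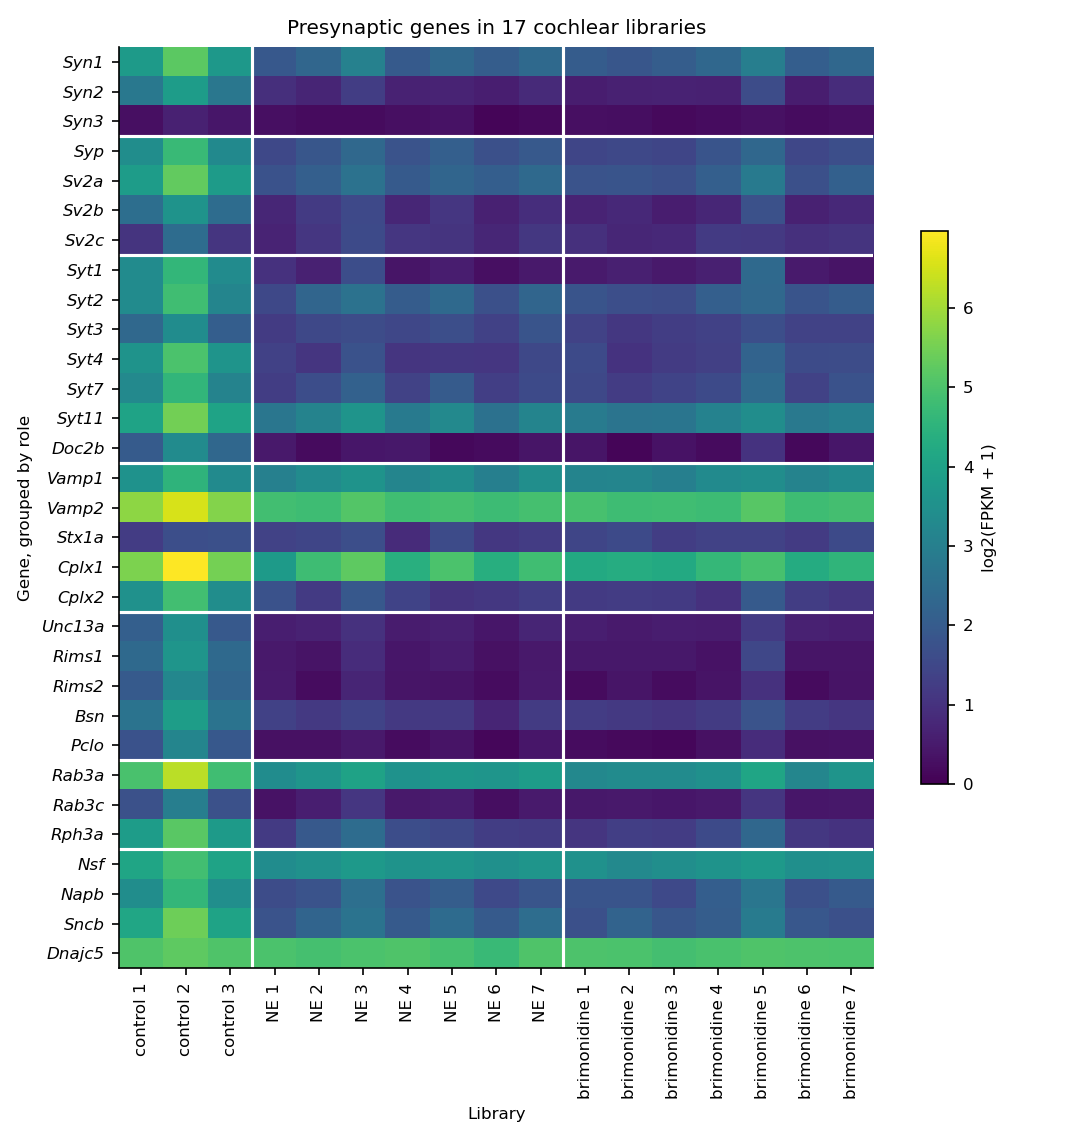
Level of each of the 31 genes (rows, grouped by role) in each of the 17 libraries (columns), as log2(FPKM + 1), from dark (0) to yellow. The 3 control columns are brightest, control 2 most of all, NE 3 and brimonidine 5 stand out among the exposed libraries, and Dnajc5 in the last row has nearly the same shade throughout.

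The presynaptic genes were mostly lower in both noise-exposed groups than in the controls, and so were markers of cerebellar and hindbrain neurons, whose summed FPKM was 316 to 845 in the controls, 22.4 to 37.2 in the NE group and 24.2 to 111 with brimonidine. The part of those neurons in the presynaptic values was not tested. Values are FPKM, the fragments of a gene scaled to exon length and to the total counted in the library, so levels can be compared between genes. Relative to the control mean, a gene of the set kept a median of 16.7% of its FPKM in the NE group, from 4.74% for Doc2b to 88.8% for Dnajc5. In the brimonidine group the median was 16.4%, from 6.08% for Doc2b to 91.3% for Dnajc5. Against controls 1 and 3 alone, the medians were 27.0% and 26.4%, and the percentages of single genes were 1.05 to 2.06 times as high, over 1.5 times for 21 of the 31. Leaving out brimonidine 5 as well lowered the brimonidine percentage by over 1.5 times for 4 genes, Syt1, Rims1, Pclo and Doc2b, the last from 9.42% to 6.02% of the mean of controls 1 and 3.

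A gene was tested between 2 groups with limma on log2(FPKM + 1) where at least 3 of the libraries compared had at least 1 FPKM, and was called where the Benjamini-Hochberg adjusted p over all genes tested was under 0.05 and the absolute log2 fold change at least 1. Of the 31 genes, 30 were tested between NE and control, and 25 were called lower and 0 higher. Over all 15950 genes tested, 5.49% were called lower. Of the 30, 8 met the filter only through the control libraries, with at most 1 NE library at the minimum (Syn2, Syt1, Unc13a, Rims1, Rims2, Pclo, Rab3c and Doc2b), so the filter itself favoured a difference for them. Of the 22 that met it in the NE group too, 17 were called lower. For 26 of the 30, every NE library lay below every control library, which held for 15.0% of all genes tested. The median log2 fold change was -1.91 over the 30 genes and -0.04 over all genes tested.

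The comparison of the brimonidine group with control gave 25 genes called lower and 0 higher of 30 tested, where 5.56% of 15947 genes were called lower. For 26 of the 30, every brimonidine library lay below every control library, against 14.3% of all genes tested. Of the 30, 9 met the filter only through the control libraries, and 16 of the 21 that met it in the brimonidine group too were called lower. Both comparisons use the same 3 control libraries, so they are not independent. Leaving out control 2 gave 21 genes called lower in NE and 23 in brimonidine libraries. Leaving out control 2 with NE 3, or control 2 with brimonidine 5, which was tried after seeing the data, gave 22 and 23.

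**Figure D2:**
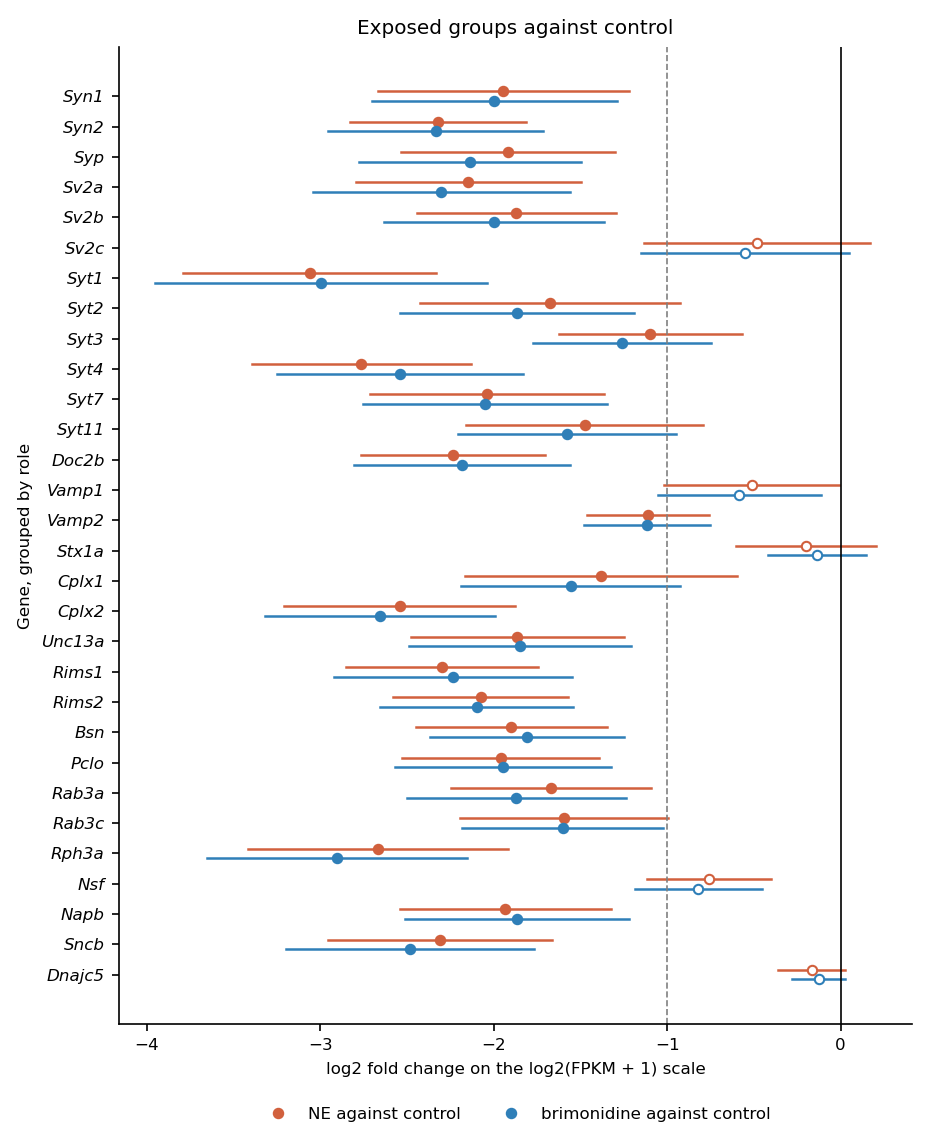
Log2 fold change, on the log2(FPKM + 1) scale, of the 30 genes tested in the NE group (orange) and the brimonidine group (blue) against control, with 95% intervals from limma. Filled points were called, the dashed line marks -1, and in each comparison 25 points are filled, while Sv2c, Vamp1, Stx1a, Nsf and Dnajc5 are open.

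Synapsins coat the vesicle surface and tether vesicles to each other and to actin. Syn1 (ENSMUSG00000037217, chromosome X, 20860511 to 20921004, minus strand, GRCm38) was at 12.8, 36.1 and 12.1 FPKM in controls 1, 2 and 3. The NE libraries ran from 2.76 to 7.41 (median 3.89) and the brimonidine libraries from 2.65 to 6.82 (median 3.25). The exposed libraries did not overlap with the controls, and the highest in each group were NE 3 and brimonidine 5. The log2 fold change of Syn1 was -1.94 (SE 0.33, adjusted p = 0.00287, limma) in the NE group, and its mean in the brimonidine group was 19.0% of the control mean (adjusted p = 0.00238, limma), or 31.1% of that of controls 1 and 3. Syn2 fell further, to 9.27% and 9.56% of its control mean of 8.37 ± 4.36 FPKM (SD, n = 3). Syn3, the least abundant synapsin, stayed between 0.0775 and 0.552 FPKM in all 17 libraries and was not tested.

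Of the vesicle membrane proteins, Syp encodes synaptophysin, the most widely used marker of synaptic vesicles, and the Sv2 genes encode glycoproteins that bind synaptotagmin. Syp was at 9.68, 25.2 and 8.88 FPKM in the controls, from 1.83 to 4.12 (median 2.63) in the NE group and from 1.73 to 4.02 (median 1.87) in the brimonidine group. No exposed library reached the lowest control, and the log2 fold changes were -1.92 (SE 0.28, adjusted p = 0.00127, limma) and -2.14 (SE 0.29, adjusted p = 0.00125, limma). Sv2a and Sv2b were called lower as well, at 16.7% and 15.1% of the control mean in the NE group, or 27.0% and 22.1% of that of controls 1 and 3. Sv2c was not called in either comparison, with log2 fold changes of -0.48 and -0.55. Its controls were 1.07, 4.55 and 1.11 FPKM, so that control 2 was 4.18 times the mean of the other controls, and the NE mean was 102% of the mean of controls 1 and 3. Its NE libraries, from 0.617 to 1.95 FPKM, overlapped with the controls.

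Synaptotagmins are the calcium sensors of exocytosis, and Syt1 and Syt2 encode the fast sensors, Syt1 the main one in the forebrain and Syt2 in much of the hindbrain and spinal cord. Syt1 (ENSMUSG00000035864, chromosome 10, 108497650 to 109010982, minus strand) had the largest fall of the 30 genes on the log2(FPKM + 1) scale, while Doc2b kept the smallest part of its control FPKM. It was at 9.36, 23.4 and 9.19 FPKM in the controls, from 0.228 to 2.11 (median 0.465) in the NE group, and from 0.296 to 4.24 (median 0.426) in the brimonidine group. NE 3 and brimonidine 5 were again the highest, and both stayed below every control. The log2 fold change was -3.06 (SE 0.33, adjusted p = 0.000258, limma) in the NE group and -2.99 (SE 0.43, adjusted p = 0.00153, limma) in the brimonidine group. The mean of the brimonidine group was 10.5% of that of controls 1 and 3, and 4.64% with brimonidine 5 left out. Syt2 (ENSMUSG00000026452, chromosome 1, 134646677 to 134762593, plus strand) was at 9.25, 27.2 and 8.08 FPKM in the controls, from 1.87 to 5.19 (median 3.79) in the NE group and from 2.05 to 4.12 (median 2.54) in the brimonidine group. It was called lower with a smaller change, -1.68 (SE 0.34, adjusted p = 0.00817, limma) and -1.87 (SE 0.31, adjusted p = 0.00265, limma).

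The other members of the family act more slowly or without binding calcium. Syt4, which does not act as a fast sensor and is also found on dense-core vesicles, was at 10.8, 30.7 and 11.1 FPKM in the controls and from 1.10 to 2.39 in the NE group, 8.43% of the control mean. Syt7, a high-affinity sensor for asynchronous release, kept 16.4%. Syt3, which has a high calcium affinity, and Syt11, which does not bind calcium, kept 33.5% and 30.0% and were called lower, with log2 fold changes of -1.10 and -1.48. Without control 2, the NE log2 fold change of Syt3 was -0.71 and that of Syt11 fell just short of the minimum (adjusted p = 0.0173, limma), and neither was called, and in the brimonidine group Syt3 was not called either (-0.87). Doc2b, a calcium sensor of spontaneous and asynchronous release, was at 2.97, 9.29 and 4.04 FPKM in the controls and at most 0.379 in the NE group, and its smallest NE value rested on 9 fragments. Against controls 1 and 3 alone, the NE percentages were 13.5% for Syt4, 26.4% for Syt7, 51.1% for Syt3 and 48.1% for Syt11.

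The bases before the start of Syn1, Syt1 and Syt2 are shown because Syn1 was the only gene of the set whose window held a listed motif for neuronal or activity-linked factors, and because Syt1 and Syt2 fell to unequal extents. Each window is the 250 bases before the outermost RefSeq start (GRCm38.p6), 5′ to 3′ on the strand of the gene, at chrX:20920919-20921168 (minus strand) for Syn1, chr10:109010976-109011225 (minus strand) for Syt1 and chr1:134646362-134646611 (plus strand) for Syt2. In Syn1 the first run of capitals is a match to the RE1 element and the second is the CRE motif TGACGTCA. The windows of Syt1 and Syt2 held no searched motif. The gene ends given above for Syn1 (20921004) and Syt1 (109010982), where these minus-strand genes start, lie inside their windows. By that annotation the last bases of these 2 windows are part of the gene.
Syn1: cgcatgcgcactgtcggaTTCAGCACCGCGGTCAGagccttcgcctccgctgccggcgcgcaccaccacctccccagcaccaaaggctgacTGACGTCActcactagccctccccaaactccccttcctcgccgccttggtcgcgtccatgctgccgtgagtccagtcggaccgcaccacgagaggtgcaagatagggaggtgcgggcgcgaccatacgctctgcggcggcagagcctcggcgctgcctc
Syt1: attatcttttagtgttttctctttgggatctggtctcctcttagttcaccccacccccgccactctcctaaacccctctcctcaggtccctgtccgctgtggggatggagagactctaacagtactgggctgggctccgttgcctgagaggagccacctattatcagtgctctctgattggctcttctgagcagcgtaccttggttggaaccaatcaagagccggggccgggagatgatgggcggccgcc
Syt2: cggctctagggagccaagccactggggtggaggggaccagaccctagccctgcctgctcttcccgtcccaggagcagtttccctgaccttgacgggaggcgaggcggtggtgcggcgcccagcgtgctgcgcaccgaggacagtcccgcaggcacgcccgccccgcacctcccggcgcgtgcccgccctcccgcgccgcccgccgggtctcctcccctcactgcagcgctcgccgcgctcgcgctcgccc

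RefSeq held a window for 24 of the 31 genes and not for Dnajc5, Doc2b, Rims2, Syn3, Syt4, Syt7 and Vamp2. Both strands were searched, and no match overlapped another. RE1, the element bound by the repressor REST in cells that are not neurons, was searched by its consensus with at most 1 mismatch. It was found in Syn1 alone of the 24 and in 0.281% of 27025 genes with a window. The CRE motif, bound by CREB, was also found in Syn1 alone and in 1.77% of all genes. The TATA box (TATAAA) was found in Sv2b alone and in 14.3% of all genes. With each gene averaged over all its RefSeq starts, the median GC content was 61.2% over the 24 genes, from 41.0% in Sv2b to 71.6% in Bsn, and 52.4% over all genes. The printed windows, at the outermost start alone, had 76.0% in Syt2 and 56.4% in Syt1.

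The SNAREs and complexins included Vamp1 and Stx1a, which were not called in either exposed group. Vamp2, the vesicle SNARE of most central synapses, was at 53.6, 91.4 and 50.5 FPKM in the controls, from 26.5 to 33.1 (median 28.0) in the NE group and from 26.5 to 34.5 (median 27.3) in the brimonidine group. The groups did not overlap, and the log2 fold changes were -1.11 (SE 0.16, adjusted p = 0.00115, limma) and -1.12 (SE 0.16, adjusted p = 0.00162, limma), just past the minimum. Without control 2 they were -0.84 and -0.85, and Vamp2 was not called in either comparison. Vamp1, its close relative in brainstem and motor neurons, was not called, with log2 fold changes of -0.51 (adjusted p = 0.146, limma) and -0.58 (adjusted p = 0.0812, limma), and the NE libraries (6.97 to 11.0 FPKM) overlapped with the controls (10.6, 22.0 and 9.10 FPKM). Stx1a, the plasma membrane syntaxin, was at 1.35, 2.17 and 2.26 FPKM in the controls, from 0.820 to 2.21 in the NE group and from 1.31 to 1.96 in the brimonidine group. Its log2 fold changes of -0.20 (adjusted p = 0.464, limma) and -0.13 (adjusted p = 0.470, limma) turned to 0.04 and 0.10 after quantile normalization.

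Complexins bind the assembled SNARE complex and both clamp and promote fusion. Cplx1 had the highest control mean of the set, which control 2 carried, at 47.0, 124 and 44.1 FPKM, while Vamp2 was higher in controls 1 and 3. It was from 12.8 to 36.9 (median 27.0) in the NE group and from 17.8 to 29.4 (median 19.0) in the brimonidine group. The highest exposed library stayed below the lowest control, and the log2 fold changes were -1.38 (SE 0.36, adjusted p = 0.0274, limma) and -1.56 (SE 0.29, adjusted p = 0.00473, limma). In the NE group the call of Cplx1 was lost without control 2 (-0.91, adjusted p = 0.111, limma) and without NE 4 (-1.34, adjusted p = 0.0545, limma). Cplx2 fell to 10.4% and 9.19% of its control mean of 16.1 ± 10.5 FPKM (SD, n = 3), with log2 fold changes of -2.54 and -2.66, or to 16.7% and 14.7% of the mean of controls 1 and 3, and was called under each of these settings.

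The active zone genes kept the smallest part of their control level as a class, with a median of 6.86% in NE and 8.16% in brimonidine libraries over 5 genes. Rims1, which recruits calcium channels and primes vesicles, was at 4.22, 11.4 and 4.19 FPKM in the controls, from 0.241 to 0.862 in the NE group and from 0.274 to 1.79 in the brimonidine group. Its log2 fold changes were -2.30 (SE 0.25, adjusted p = 0.000271, limma) and -2.23 (SE 0.31, adjusted p = 0.0013, limma), with brimonidine 5 the highest exposed library and still below every control. Rims2 and the scaffold genes Pclo (piccolo) and Bsn (bassoon) were called lower in both comparisons, at 6.86%, 5.78% and 15.6% of the control mean in the NE group, and so was Unc13a, which encodes the priming factor Munc13-1, at 10.5%. Against controls 1 and 3 alone, the median of the class was 10.1% in NE and 12.8% in brimonidine libraries, and the NE percentages were 10.1% for Rims2, 9.91% for Pclo, 23.8% for Bsn and 18.5% for Unc13a. With brimonidine 5 left out as well, the brimonidine median of the class was 7.83%, with 7.83% for Rims1 and 7.25% for Pclo. Bassoon and piccolo are also found at the ribbon synapse of hair cells. The smallest counts behind these values were 13 fragments for Rims2 and 28 for Rims1 in the NE group, so single libraries are imprecise there.

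Rab3 proteins carry vesicles to the membrane, and rabphilin binds them. Rab3a was at 30.4, 75.3 and 27.3 FPKM in the controls, from 9.42 to 15.0 (median 11.5) in the NE group and from 8.21 to 16.0 (median 9.33) in the brimonidine group. It was called lower without overlap of the groups, at log2 fold changes of -1.67 and -1.87. Rph3a fell further, to 10.7% and 8.37% of the control mean, with log2 fold changes of -2.67 (SE 0.34, adjusted p = 0.000633, limma) and -2.90 (SE 0.34, adjusted p = 0.00111, limma). Rab3c, at 12.6% and 12.3%, was also called lower in both. Against controls 1 and 3 alone, Rph3a kept 16.7% and 13.1%, and Rab3c kept 20.5% in the brimonidine group.

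Of the genes for disassembly and folding, Nsf and Dnajc5 act in many cell types, and neither was called. Nsf, the ATPase that separates used SNAREs, was at 16.0, 28.2 and 15.4 FPKM in the controls and from 9.52 to 12.6 in the NE group. It passed the adjusted p but not the minimum fold, at -0.76 (SE 0.16, adjusted p = 0.0108, limma) and -0.82 (SE 0.17, adjusted p = 0.00817, limma). Dnajc5, which encodes the chaperone cysteine string protein, was at 32.3, 36.6 and 32.0 FPKM in the controls, from 25.3 to 32.1 in the NE group and from 28.2 to 32.2 in the brimonidine group. The groups overlapped, and the log2 fold change was -0.17 in the NE group (95% interval -0.36 to 0.03). Napb, which encodes the Nsf adaptor β-SNAP, and Sncb (β-synuclein) were called lower, at 19.5% and 15.2% of the control mean in the NE group, or 28.7% and 23.7% of that of controls 1 and 3.

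Within most families the balance between paralogues differed from control. The share of 1 paralogue in the summed FPKM of its family was compared between groups for 8 families with an exact two-sided permutation test, whose smallest p is 0.00833 for 7 libraries against 3, adjusted over the 8 families of a comparison. Syt1 made up 50.3%, 46.2% and 53.2% of Syt1 and Syt2 together in the controls, and from 9.21% to 34.8% (median 10.1%) in the NE group. The groups did not overlap, and the means differed by -33.6 percentage points (adjusted p = 0.0167, exact permutation test). In the brimonidine group the share was from 8.74% to 50.7% (median 14.4%). Brimonidine 5 lay within the range of the controls and the next highest library was at 19.7%, and the difference from control was -30.4 points (adjusted p = 0.0286, exact permutation test). Cplx1 rose from a mean of 81.8% to 93.1% of both complexins in the NE group and to 93.6% in the brimonidine group. Bsn rose from 65.9% of Bsn and Pclo to 83.6% and 85.4%, Syn1 from 68.7% of the synapsins to 80.6% and 80.4%, Rab3a from 92.3% of Rab3a and Rab3c to 96.3% and 95.9%, and Vamp1 from 17.1% of Vamp1 and Vamp2 to 23.5% and 22.6%.

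In the NE group 6 of the 8 shares passed an adjusted p of 0.05, with Sv2a (adjusted p = 0.0762, exact permutation test) and Rims1 (adjusted p = 0.883, exact permutation test) as the exceptions, and in the brimonidine group 7 of 8, with Rims1 as the exception. Without control 3, 0 of 8 passed in the NE group. The smallest p for 7 libraries against 2 is 0.0278 and the lowest adjusted p was then 0.0556, while the difference in the Syt1 share was -31.9 points. The Syn1 share in the NE group also missed the threshold without control 1 and the Rab3a share without control 2 (adjusted p = 0.0741 in each exact permutation test), and the Sv2a share passed without NE 6 (-8.18 points, adjusted p = 0.0272, exact permutation test). The Syt1 share in the brimonidine group missed it without any 1 of the controls, with adjusted p from 0.0635 to 0.0952 in exact permutation tests and differences from -32.2 to -28.7 points. Between the brimonidine and NE groups, 0 of 8 shares passed, with an adjusted p of 0.938 for each in the exact permutation test. The Syt1 share there differed by 3.20 points (SD 14.1 in the brimonidine and 10.8 in the NE group, n = 7 each).

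**Figure D3:**
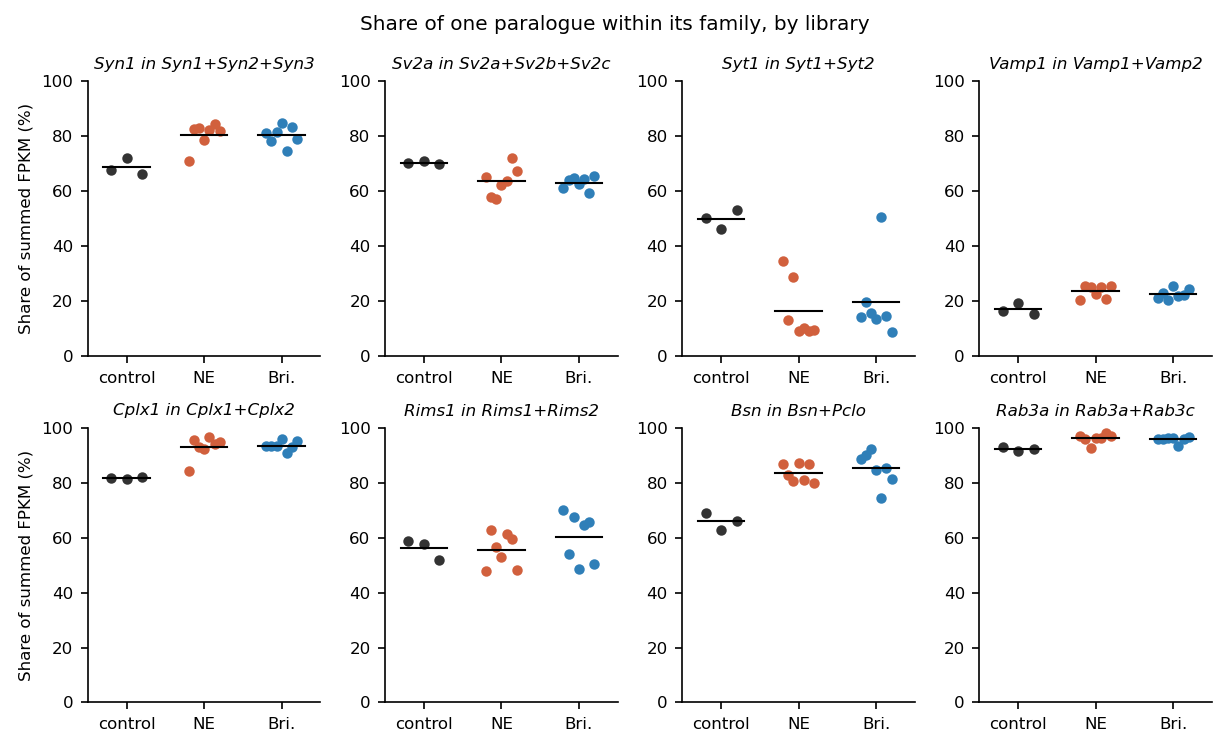
Share in percent of 1 paralogue in the summed FPKM of its family, 1 point a library, for 8 families in the control (black, n = 3), NE (orange, n = 7) and brimonidine (blue, n = 7) groups, with lines at the group means. The Syt1 share drops from a mean of 49.9% in controls to 16.4% in NE libraries, with brimonidine 5 alone among the exposed at 50.7%, and the Rims1 share overlaps between groups.

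Brimonidine was compared with NE to ask whether the drug changed these levels in noise-exposed mice. Of the 31 genes, 22 were tested between the brimonidine and NE groups, 1 of them through the NE libraries alone. Of the 22, 0 were called, and over all 15707 genes tested the share called in either direction was 0%. At an unadjusted p under 0.05, 0 of the 22 were lower and 0 higher, while 2.46% of all genes tested were lower at that threshold, and limma's voom on the recovered fragments also called 0. The fold change was negative for 17 of the 22, with a median of -0.08 on the log2 scale and 0.01 over all genes tested.

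Syp had a log2 fold change of -0.22 (95% interval -0.53 to 0.09, adjusted p = 0.899, limma), Rab3a of -0.20 (-0.46 to 0.07) and Syt2 of -0.19 (-0.54 to 0.15). The ranges of the groups overlapped for each. Cplx1 had -0.17 (-0.58 to 0.23) and Rph3a -0.23 (-0.71 to 0.24), the widest interval of the 22. Syt4 was higher in the mean, at 0.22 (-0.13 to 0.58). The narrowest intervals belonged to Dnajc5, at 0.04 (-0.07 to 0.15), and Vamp2, at -0.01 (-0.14 to 0.13). No interval of the 22 reached 1 in either direction on the log2(FPKM + 1) scale, which understates the change of low genes, so for these a larger fold in FPKM is not bounded.

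These values depended on a library of each group. Without brimonidine 5 the median over the 22 genes was -0.17, 5 had an unadjusted p under 0.05 and were lower in the brimonidine group, where 2.57% of all genes tested were lower at that threshold in the same fit, and 0 were called. Without NE 3 the median was -0.02 and 13 of the 22 were negative.

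**Figure D4:**
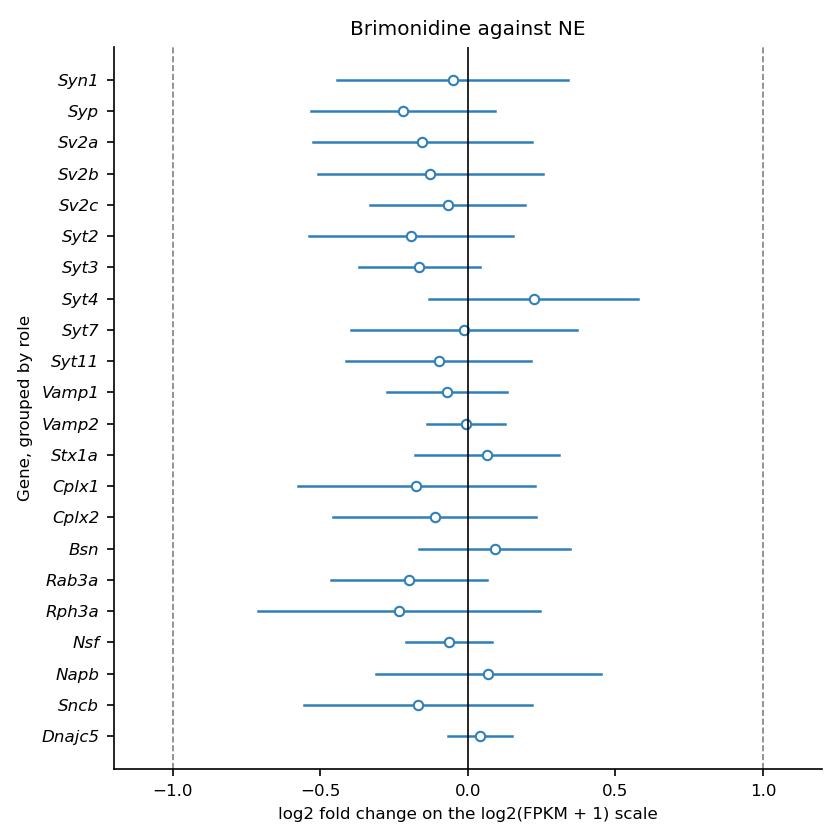
Log2 fold change, on the log2(FPKM + 1) scale, in the brimonidine group against the NE group for the 22 genes tested, with 95% intervals from limma and dashed lines at -1 and 1. Every interval includes 0 and lies inside the dashed lines, 17 of the 22 points lie left of 0, and Rph3a has the widest interval.

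The other genes of the release pathway were read from a list of 54 further presynaptic genes. Of the 43 tested, 28 were called lower and 0 higher in the NE group, with a median log2 fold change of -1.54, and 28 of 43 were called lower in the brimonidine group, where 5.49% and 5.56% of all genes tested were. In each comparison 17 of the 43 met the filter only through the controls, and 12 of the other 26 were called lower. Snap25, the SNARE partner of syntaxin and Vamp, was at 51.3, 141 and 52.4 FPKM in the controls and kept 16.3% of the mean in NE and 14.9% in brimonidine libraries. Dnm1, the dynamin of vesicle recycling, kept 19.7% and 19.9%. Against controls 1 and 3 alone, Snap25 kept 25.6% and 23.5%, and Dnm1 30.2% and 30.4%. Rabac1 and Rab3d, which are also used outside neurons, were at 85.2% and 140% of the control mean in the NE group and were not called.

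A list of SNAREs and partners used by most cells was read beside them. Of 34 tested, 1 (Snap47) was called lower and 0 higher in each exposed group, a share near the 5.49% and 5.56% over all genes and so no result about the list, with median log2 fold changes of 0.01 and 0.04. The summed FPKM of the list was 660 to 750.4 in the controls, 718 to 782 in NE and 725 to 789 in brimonidine libraries, with control 2 the lowest. Vamp3 and Vamp8, SNAREs of endosomes and secretory granules, were at 115% and 109% of the control mean in the NE group, and at 102% and 96.7% of that of controls 1 and 3.

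Marker lists of cell types that could hold the presynaptic messages were read beside them, as counts of genes called lower against the 5.49% (NE) and 5.56% (brimonidine) of all genes tested. The summed FPKM of the 31 genes was 370.4, 862 and 354 in controls 1, 2 and 3, 133 to 213 in NE (NE 3 highest) and 132 to 216 in brimonidine libraries (brimonidine 5 highest). Of 23 markers of cerebellar and hindbrain neurons, 20 were tested and 19 called lower in each exposed group. The filter favoured a difference for most of them, since 15 of the 20 met it only through the controls in the NE comparison and 14 in the brimonidine comparison. The other 5 and 6 were called lower. Their summed FPKM was 316, 845 and 327 in the controls, 22.4 to 37.2 in NE (NE 1 highest) and 24.2 to 111 in brimonidine libraries (brimonidine 5 highest). Gabra6, the granule cell GABA receptor subunit that defines the list, was at 31.5, 93.5 and 36.9 FPKM in the controls. It was at 0 in NE 2, NE 3 and brimonidine 1, at most 2.08 in the NE group and at 8.81 in brimonidine 5. The libraries with the highest Syt1 share in each exposed group, NE 1 and brimonidine 5, were also the highest for this list. NE 3 had the next highest NE share (28.9%) and the highest NE level of Syt1 (2.11 FPKM). Its sum for this list, 25.7 FPKM, was within the range of the other NE libraries. The part of these neurons in the fall of the presynaptic genes was not tested.

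Of 22 markers of spiral ganglion and peripheral neurons, 19 were tested (3 through the controls alone), and 7 were called lower in NE and 9 in brimonidine libraries. Of the 16 that met the filter in the exposed group too, 4 and 6 were called lower. Their summed FPKM was 196 to 537 in the controls, 87.7 to 197 in the NE group, where NE 3 was highest, and 102 to 141 in the brimonidine group. Tubb3, the neuronal β-tubulin, was at 20.2, 53.9 and 20.1 FPKM in the controls, and NE 3 (24.7) exceeded controls 1 and 3. Of 19 hair cell markers, 0 of 11 tested were called in NE and 0 of 13 in brimonidine libraries, and the summed FPKM of 146 to 316 in the controls overlapped with 128 to 160 and 108 to 156. These counts are near the share over all genes, and the sum is mostly Pvalb, which is also made by other neurons and by muscle and made up 70.6% to 81.3% of it in the controls. Without Pvalb, which was left out after its values were seen, the sums were 39.8 to 59.2 in the controls, 45.5 to 53.7 in NE and 47.9 to 57.1 in brimonidine libraries. Otof (otoferlin) was at 2.19, 6.06 and 1.96 FPKM in the controls and from 2.34 to 3.23 in the NE group. Of 16 markers of central glia, 14 were tested (3 through the controls alone), and 6 and 7 were called lower, or 4 and 5 of the 11 that met the filter in the exposed group too. Of 15 Schwann cell markers, 13 were tested, and 0 and 1 were called lower, again near the share over all genes. The summed FPKM of central glia was 199 to 400 in the controls, 65.7 to 99.3 in NE and 57.2 to 102 in brimonidine libraries, and that of Schwann cells 151 to 418, 121 to 220 and 139 to 181. Aldoc, an enzyme of glycolysis that cerebellar Purkinje cells also make, was at 101 to 238 FPKM in the controls and 8.60 to 12.7 in the NE group and carried much of the central glia sum. Without it, left out after its values were seen, the sums were 87.6 to 162 in the controls, 56.9 to 86.6 in NE and 50.3 to 73.0 in brimonidine libraries. The part of each of these cell types in the presynaptic values was not tested.

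**Figure D5:**
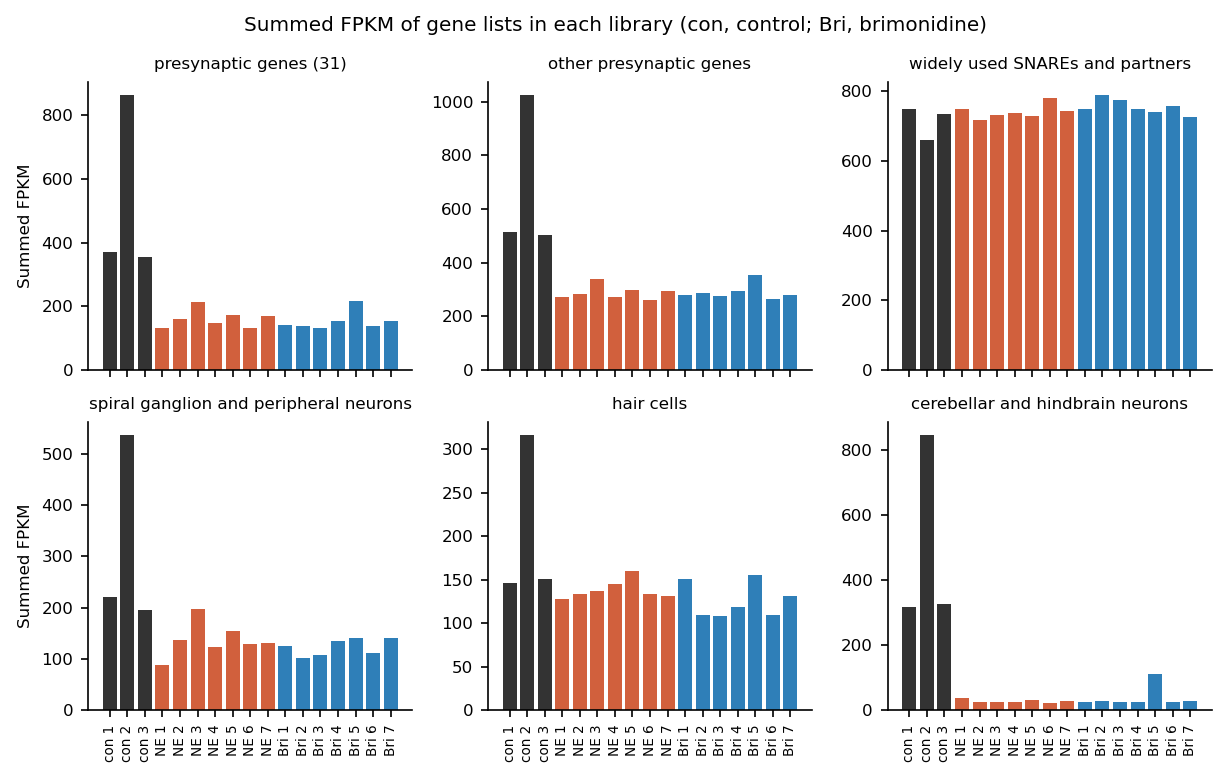
Summed FPKM in each library (bars) of the 31 presynaptic genes and of 5 gene lists, with control in black, NE in orange and brimonidine in blue. Control 2 is the highest bar in every panel but that of the widely used SNAREs, where it is the lowest, and brimonidine 5 is the highest exposed library for the cerebellar and hindbrain list.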

How the data were processed

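The authors extracted total RNA with TRIzol, prepared TruSeq Stranded mRNA libraries and sequenced them on an Illumina NovaSeq. Per the submitters' processing notes, Trimmomatic, HISAT2, Cufflinks and HTSeq were used with mm10, and no versions were given. The authors deposited FPKM values for 35285 genes in 17 libraries, with no counts and no further scaling between libraries. Gene positions were identical to GENCODE M21 for 93.9% of 35207 genes. Multiplied by M21 exon length, or by a length solved from the values, 34974 of 35029 genes above 0 (99.8%) gave whole fragments within 0.01, which gave the depth of each library. Counting error and the spread between mice are not separated by these values.

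Groups came from the sample titles, and each library is treated as a separate mouse, as the study describes. The 31 genes and the lists were chosen with earlier results of these data known. All 31 are described, and other genes are named only from the lists, at most 8 a list (the head marker and those highest in controls), of which some are not reported here, plus Snap47, named after its value was seen as the only call in its list.

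A gene needed at least 1 FPKM in 3 or more of the libraries in a comparison and was fitted with limma 3.58.1 in R 4.3.3 (lmFit, eBayes with a trend) on log2(FPKM + 1), a scale that understates the change of low genes, with the 2 groups compared in the model. The study's own test, DESeq2, was not run, because the deposited unit is FPKM, and the recovered fragments were fitted with voom instead. The fit was tested on simulated data with a log2 change of 2 and noise independent between genes and equal between groups. The shifts of whole libraries seen in control 2 and brimonidine 5 were not simulated. That test therefore does not give the error rate for these libraries. Shares, permutation tests and promoter searches were run in Python 3.11.15 with numpy 2.4.6 and pandas 2.3.3, and figures were drawn with matplotlib 3.10.9. Alternatives were a pseudocount of 0.1, no filter, no minimum fold change, median-ratio and quantile scaling, all 17 libraries in 1 fit, the replicate number as a block, voom on the recovered fragments, log ratios for shares, and each library left out, with the genes tested kept as in the full fit.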

Additional observations from a re-analysis of the deposited data

Results flagged for a closer look

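In each exposed group of 7 libraries, the gap between the highest or lowest library and its neighbour, divided by the range of the group, was compared with Dixon's 95% critical value for each of the 31 genes. Of the 62 groups examined 29 passed, where chance alone passes about 1 in 20, and since the genes share libraries these are not separate events. The high value belonged to brimonidine 5 for 22 genes. Its FPKM values among the synapsins were 6.82 for Syn1 and 2.09 for Syn2. Among the vesicle membrane proteins they were 4.02 for Syp, 6.36 for Sv2a and 2.29 for Sv2b. For the calcium sensors they were 4.24 for Syt1, 2.16 for Syt3, 3.69 for Syt4, 4.27 for Syt7 and 1.04 for Doc2b. The SNARE and complexin values were 34.5 for Vamp2 and 2.92 for Cplx2. At the active zone it had 1.27 for Unc13a, 1.79 for Rims1, 0.981 for Rims2, 2.44 for Bsn and 0.842 for Pclo. For Rab3 and rabphilin it had 16.0 for Rab3a, 1.09 for Rab3c and 4.01 for Rph3a. Of the remaining genes it had 5.67 for Napb and 6.48 for Sncb. NE 3 was the high library for 6 genes, with FPKM values of 7.41 for Syn1, 1.95 for Sv2c, 2.11 for Syt1, 33.1 for Vamp2, 0.862 for Rims1 and 1.15 for Rab3c. The last was a low value, 0.645 FPKM for Bsn in NE 6, and the explanation of these values was not tested.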

How the results depend on the processing

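Of the results recomputed, the counts of genes called stayed within 1.5 times the main count under each alternative but the replicate block. Against control, 25 genes were called in both exposed groups by voom and with a pseudocount of 0.1, and 26 with no minimum fold change. In the NE group 23 were called after median-ratio scaling (without Syt3 and Vamp2) and 24 after quantile scaling (without Syt3), and both moved the median log2 fold change of all genes from -0.04 to 0.06, so changes of that size have no fixed direction. Leaving out 1 library gave 21 to 25 genes for NE and 23 to 25 for brimonidine, lowest without control 2, and 0 in the comparison of brimonidine with NE. The shares past the threshold in the NE group ranged from 0 to 7 when 1 library was left out, with 0 without control 3. The log2 fold change of Stx1a turned to 0.0359 (NE) and 0.102 (brimonidine) after quantile normalization, and that of Vamp2 between brimonidine and NE ranged from -0.051 to 0.0286. With the replicate number as a block (replicate block), 0 genes were called for NE against control and 12 for brimonidine against control. The median log2 fold change of the 30 genes was then -1.79 and -2.10, where the main fits gave -1.91 in both. Residuals of same-numbered libraries correlated between -0.230 and 0.0843, which gave no sign that the numbers pair the libraries. With 3 controls, of which control 2 lies apart, these correlations cannot exclude a pairing. Only 3 numbers are shared with control, so the block fit leaves few residual degrees of freedom there. The causes of these changes were not tested. Depth limits the lowest genes, where single NE values rest on 9 (Doc2b) or 13 (Rims2) fragments.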
